A study of Mus musculus with 5 samples.

Results

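Neuropeptide precursors are the proteins from which neurons cut their signalling peptides. Of the 53700 gene IDs in the count table, 10 were taken here: Sst, Cck, Nts, Vip, Penk, Tac1, Gal, Grp, Cartpt and Adcyap1. They were chosen by name, as precursor genes known from midbrain neurons, with earlier results of these data known. All 10 had counts in every library and an adjusted p. RNA was purified by BAC-TRAP (translating ribosome affinity purification), in which an antibody pulls down ribosomes that carry an EGFP tag on the protein L10a, together with the mRNA they hold. The table covered 5 libraries of midbrain from C57BL/6 mice aged 4 months, each made from pooled animals: 3 with the genotype L10a;Esrrg WT (replicates 2, 3 and 4) and 2 with the genotype L10a;Esrrg Flox (replicates 2 and 4).

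All animals of both groups carried the L10a tag and received AAV:THCre, a virus in which a tyrosine hydroxylase promoter drives Cre recombinase. Cre switches on the tag and, in Esrrg Flox mice, removes exon 2 of Esrrg, the gene for the nuclear receptor ERRγ. Tissue was taken 1 month after the deletion, so the groups differ in the floxed alleles and share the tag, the virus and the age. The tag was directed to dopaminergic neurons, but the virus promoter and the purity of the pull-down limit how far the RNA can be read as theirs. The p-values measure the spread between these pools of animals.

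A precursor enters the secretory pathway, is sorted into dense-core vesicles, is cut by prohormone convertases and trimmed by carboxypeptidase E, and often receives a C-terminal amide before release. The peptides then act through G protein-coupled receptors, over longer distances and times than fast transmitters. In the ventral midbrain, cholecystokinin, neurotensin and several other peptides are known from subsets of dopaminergic neurons, while somatostatin and the enkephalins are known mainly from GABAergic neurons. Transcription of several precursor genes, Sst being the textbook case, is driven by cyclic AMP through the cyclic AMP response element (CRE).

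The promoters are shown because several of the 10 genes are known targets of that pathway. RefSeq promoter windows (build GRCm38.p6, 250 bases before to 50 bases after the start) were matched for 8 of the 10 genes, in 9 windows, since Adcyap1 has 2 starts. Penk and Grp had no entry. The short CRE motif TGACG, searched on both strands, was found in all 8 matched genes, the Adcyap1 windows sharing 1 site, against 20.8% of all 32851 windows. In Gal it lay after the start, at bases 19 to 23 downstream. The following 29-base stretches carry it in 7 genes, each 5′ to 3′ in the direction of transcription, with TGACG or its reverse complement CGTCA in capitals.
Sst, chr16:23890873-23890901, minus strand: ctccttggctgaCGTCAgagagagagttt
Cck, chr9:121495725-121495753, minus strand: cctgctggactgCGTCAgcactgggtaaa
Nts, chr10:102490568-102490596, minus strand: attagggaagatCGTCActttccatcaag
Vip, chr10:5639127-5639155, plus strand: ggatcactactgTGACGtctttcggggag
Tac1, chr6:7555006-7555034, plus strand: gctctacaggctCGTCAcgcctgagataa
Cartpt, chr13:99900776-99900804, minus strand: ggcgggcattgaCGTCAaacggcagcgga
Adcyap1, chr17:93198914-93198942, plus strand: ggactaggatgcTGACGtcttttactgat

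The full palindromic CRE, TGACGTCA, which overlaps the short motif on either strand, was present in Sst and Cartpt and in 1.79% of all windows. In Sst it began 48 bases before the start and in Cartpt 112 bases before it. Nts alone among the matched genes held the AP-1 element TGANTCA, 207 bases before its start, against 7.81% of all windows. The 250 bases before the start of Sst and of Nts show these positions, with the CRE of Sst and the AP-1 element and short CRE motif of Nts in capitals.
Sst, chr16:23890845-23891094, minus strand: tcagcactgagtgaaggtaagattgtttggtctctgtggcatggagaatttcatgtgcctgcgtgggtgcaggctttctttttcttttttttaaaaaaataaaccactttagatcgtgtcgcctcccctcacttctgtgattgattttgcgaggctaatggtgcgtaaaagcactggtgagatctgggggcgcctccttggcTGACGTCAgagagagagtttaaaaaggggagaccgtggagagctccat
Nts, chr10:102490419-102490668, minus strand: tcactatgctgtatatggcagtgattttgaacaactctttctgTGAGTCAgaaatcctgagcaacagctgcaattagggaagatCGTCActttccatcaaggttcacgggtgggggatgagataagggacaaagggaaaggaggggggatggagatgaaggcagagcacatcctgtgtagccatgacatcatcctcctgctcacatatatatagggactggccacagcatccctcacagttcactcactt
The nuclear receptor element of the ERR family, TCAAGGTCA, was in 0 of the 9 windows and in 0.423% of all windows, and its shorter form AAGGTCA in 0 of the 9 against 4.72%. With shares this low, 9 windows are too few to show that these genes lack the element. The TATA box letters, TATAAA, searched anywhere in the window on the coding strand, were found in Vip and Adcyap1 and in 8.32% of all windows. The copy nearest the start was at bases -30 to -25 in Vip. In Adcyap1 it was at bases -58 to -53 from 1 of the 2 starts, so a match need not be a placed TATA box. A match is a stretch of letters and not a measured binding site, and these windows do not cover distal elements.

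In WT libraries the precursor genes spanned a wide range of levels. Normalized counts (counts divided by the DESeq2 size factor of the library) were set per kilobase of exon to compare genes. Sst and Cartpt, which encodes the cocaine- and amphetamine-regulated transcript peptide, were the highest, at 6594 ± 1112 and 6079 ± 2715 normalized counts per kilobase (SD, n = 3). For scale, Th, the dopamine-synthesis gene whose promoter drives the virus, was at 4731 ± 636.0 per kilobase. Cck followed at 2260 ± 221.2, Penk at 1648 ± 215.8 and Adcyap1 at 673.0 ± 25.35 per kilobase. Cck, a peptide gene of dopaminergic neurons, thus stood below Sst, a peptide gene of GABAergic neurons, in every WT library.

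The lower part of the order was Nts at 439.8 ± 72.55, Tac1 at 397.3 ± 118.3, Gal at 223.0 ± 91.20, Grp at 177.7 ± 26.48 and Vip at 27.22 ± 6.913 normalized counts per kilobase. The WT ranges of Sst and Cartpt overlapped, as did those of Nts and Tac1 and those of Gal and Grp, so these neighbours were not separated. All the other neighbours in the order had WT ranges that did not overlap. With the longest transcript in place of all exons, Tac1 came before Nts, their WT ranges no longer overlapped, and those of Adcyap1 and Tac1 did.

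**Figure D1:**
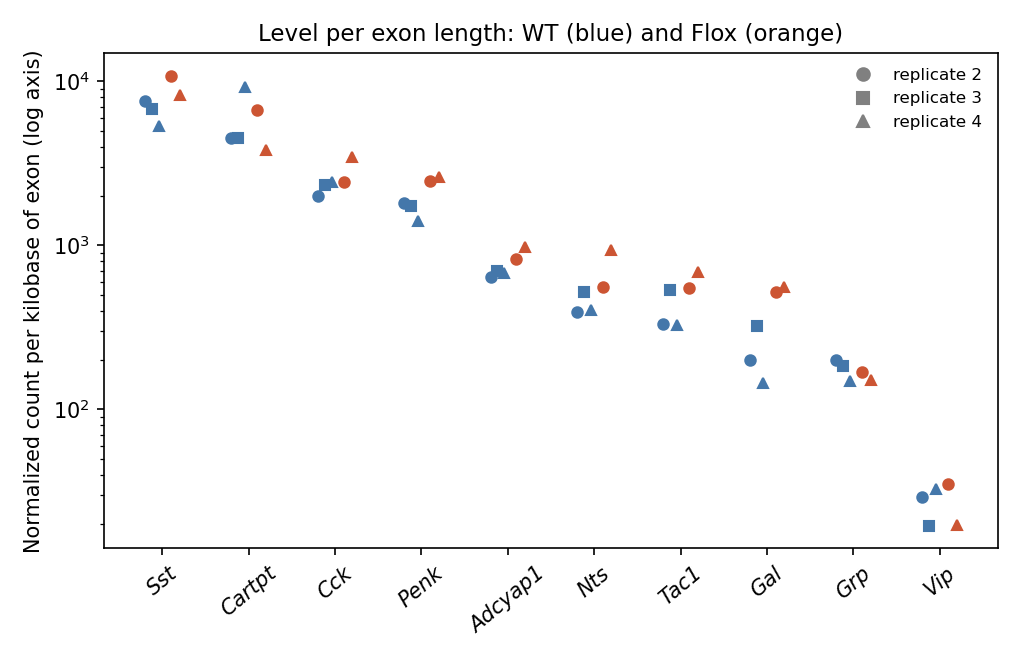
Normalized count per kilobase of exon (log axis) of the 10 precursor genes, ordered by their WT mean, with 1 point per library (WT blue, Flox orange, the marker giving the replicate number). The order runs from Sst at 6594 to Vip at 27.22 per kilobase in WT, and the Flox points of Gal lie above its 3 WT points.

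Together the 10 genes took 0.0985, 0.103 and 0.116% of the assigned counts in WT replicates 2, 3 and 4, and 0.137 and 0.122% in Flox replicates 2 and 4. Both Flox shares were above all WT shares. Cartpt made up 45.7% of the precursor counts in WT replicate 4 and between 17.8 and 28.3% in the other libraries, so this gene weighed on the sum of that library.

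The comparison of Esrrg Flox with Esrrg WT asks how the precursor mRNAs differed after the deletion in cells with the tag. Esrrg itself was read first, at 1763, 1643 and 1726 normalized counts in WT and 1504 and 1170 in Flox. Both Flox values were below the WT values, with a log2 fold change of -0.35 ± 0.13 (SE), and the difference did not pass the test (DESeq2 adjusted p = 0.0753). Counts per gene include reads from exons other than exon 2, so this is no direct measure of the deletion. By quantitative PCR of pull-downs from this cohort, the paper reports Esrrg as significantly lower in Flox than in WT. From its splicing analysis, the paper also reports loss of the floxed exon from an Esrrg transcript in these samples.

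Of the 10 precursor genes, 5 rose in Flox at a DESeq2 adjusted p under 0.05: Gal, Nts, Penk, Sst and Adcyap1. The number that fell was 0, also at an unadjusted p under 0.05 and with edgeR. Across all 15724 genes tested, 4.20% were higher and 4.05% lower by the same rule. With a fold change of at least 1.5 added, 3 precursor genes (Gal, Nts and Penk) passed, against 1.77% of all genes. In 6 of the 10 genes the lower Flox value exceeded the highest WT value, an arrangement found in 19.9% of all genes tested. The median log2 fold change of the 10 genes was 0.48, against -0.0063 over all genes tested. The 10 genes were chosen with earlier results of these data known, so these counts describe them and are no independent test. Since the RNA came from whole pull-downs, more or fewer cells of a type and more or less RNA per cell cannot be told apart.

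**Figure D2:**
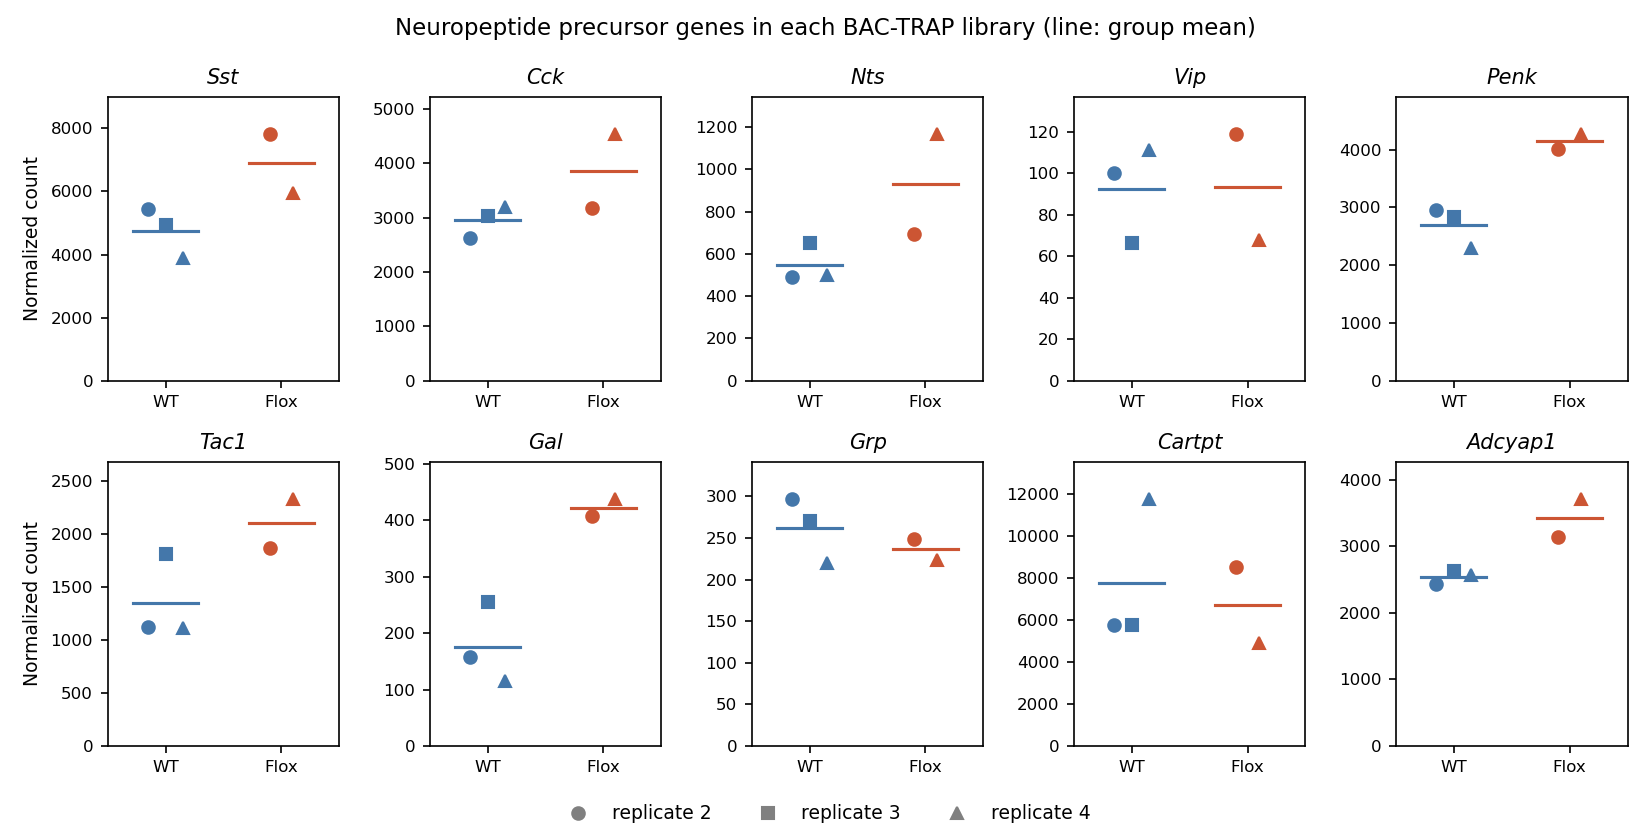
Normalized counts of the 10 precursor genes in each library (linear axes from 0, 1 panel per gene, marker shape giving the replicate number, horizontal lines giving group means). Both Flox points lie above the 3 WT points for Sst, Nts, Penk, Tac1, Gal and Adcyap1, and the groups overlap for Cck, Vip, Grp and Cartpt.

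Among the inhibitory peptides, Gal, the precursor of galanin, had the largest fold. It was at 158.0, 254.8 and 114.3 normalized counts in WT replicates 2, 3 and 4, and at 407.3 and 438.4 in Flox replicates 2 and 4. The Flox values lay close together and well above the WT values, which themselves spread 2.23-fold. The fold was 2.41, with a log2 fold change of 1.27 ± 0.27 (SE) and a DESeq2 adjusted p of 3.2e-04. Leaving out Flox replicate 4 gave 1.21 and ended the call (DESeq2 adjusted p = 0.0753).

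Penk, the precursor of the enkephalins, which are opioid peptides, stood at 2959, 2827 and 2293 in WT and 4014 and 4276 in Flox. The groups did not overlap and the Flox libraries differed by only 1.07-fold. Its fold of 1.54 (log2 0.62 ± 0.13, SE) passed with a DESeq2 adjusted p of 1.8e-04. This was the call that held in the most alternatives, 11 of 12, and it was lost without Flox replicate 4 (DESeq2 adjusted p = 0.0572).

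Sst, the precursor of somatostatin, gave 5455, 4928 and 3880 normalized counts in WT and 7835 and 5948 in Flox. Here Flox replicate 2 was the highest library, and the lowest Flox value was near the highest WT value. The fold of 1.45 (log2 0.54 ± 0.16, SE) passed with a DESeq2 adjusted p of 0.0157. Its call ended without Flox replicate 2 (log2 0.32, DESeq2 adjusted p = 0.261) and when a trend of counts on exon length was removed (log2 0.30, DESeq2 adjusted p = 0.338).

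Adcyap1 and Vip encode the related peptides PACAP and VIP, which act on overlapping receptors that raise cyclic AMP. Adcyap1 was at 2437, 2624 and 2565 in WT and 3136 and 3712 in Flox. The WT libraries were within 1.08-fold of each other and the Flox libraries lay above them, with a fold of 1.35 (log2 0.43 ± 0.11, SE; DESeq2 adjusted p = 0.00555). The call was lost without WT replicate 2 (DESeq2 adjusted p = 0.135) and without Flox replicate 4 (log2 0.30, DESeq2 adjusted p = 0.523).

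Vip was the lowest of the 10, at 100.1, 66.24 and 111.4 in WT and 119.1 and 67.60 in Flox. The groups overlapped, although Flox replicate 2 was above every WT library. The log2 difference was 0.012 with a 95% interval from -0.66 to 0.68, wide enough to include a 1.5-fold change in either direction (DESeq2 adjusted p = 0.992). The difference between the log2 fold changes of Adcyap1 and Vip was not tested.

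Nts, the precursor of neurotensin, a peptide that modulates dopaminergic neurons, was at 491.0, 653.2 and 502.5 in WT and 692.6 and 1170 in Flox. The lower Flox library was just above the highest WT library, and Flox replicate 4 stood apart. Its fold was 1.70 (log2 0.76 ± 0.21, SE; DESeq2 adjusted p = 0.00889). Leaving out Flox replicate 4 brought it to 0.33 (DESeq2 adjusted p = 0.817), and the call also ended without WT replicate 2 (0.101), without WT replicate 4 (0.316) and with the length trend removed (0.0573).

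Cck, the precursor of cholecystokinin, which many dopaminergic neurons also make, had 2629, 3030 and 3189 normalized counts in WT and 3180 and 4544 in Flox. Flox replicate 2 lay within the WT values and only Flox replicate 4 was above them. The log2 difference was 0.39 with a 95% interval from 0.087 to 0.69, and it did not pass (DESeq2 adjusted p = 0.0989). It passed without Flox replicate 2 (log2 0.62, DESeq2 adjusted p = 0.00109) and without WT replicate 4 (0.0494).

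Tac1 encodes substance P and neurokinin A, excitatory tachykinins. Its counts were 1122, 1815 and 1114 in WT and 1869 and 2335 in Flox. Both Flox libraries were higher than every WT library, but WT replicate 3 was close to Flox replicate 2, and the log2 difference of 0.64 (95% interval -0.029 to 1.31) did not pass (DESeq2 adjusted p = 0.276). Without WT replicate 3 it was 0.91 and passed (DESeq2 adjusted p = 5.8e-06).

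Grp, the precursor of gastrin-releasing peptide, which is known from a subset of dopaminergic neurons, was at 297.1, 270.1 and 220.0 in WT and 248.8 and 223.7 in Flox. All its values lay within a 1.35-fold range and the groups overlapped. The log2 difference of -0.15 had a 95% interval from -0.54 to 0.24 (DESeq2 adjusted p = 0.767).

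Cartpt was the precursor gene with the widest spread within WT after Gal, at 5758, 5765 and 11767 in WT and 8507 and 4909 in Flox. WT replicate 4 was the highest library and Flox replicate 4 the lowest, so same-numbered libraries stood at opposite ends. The log2 difference was -0.21 with a 95% interval from -1.20 to 0.78 (DESeq2 adjusted p = 0.889), and its sign turned to 0.22 without WT replicate 4 and to 0.13 without Flox replicate 4.

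**Figure D3:**
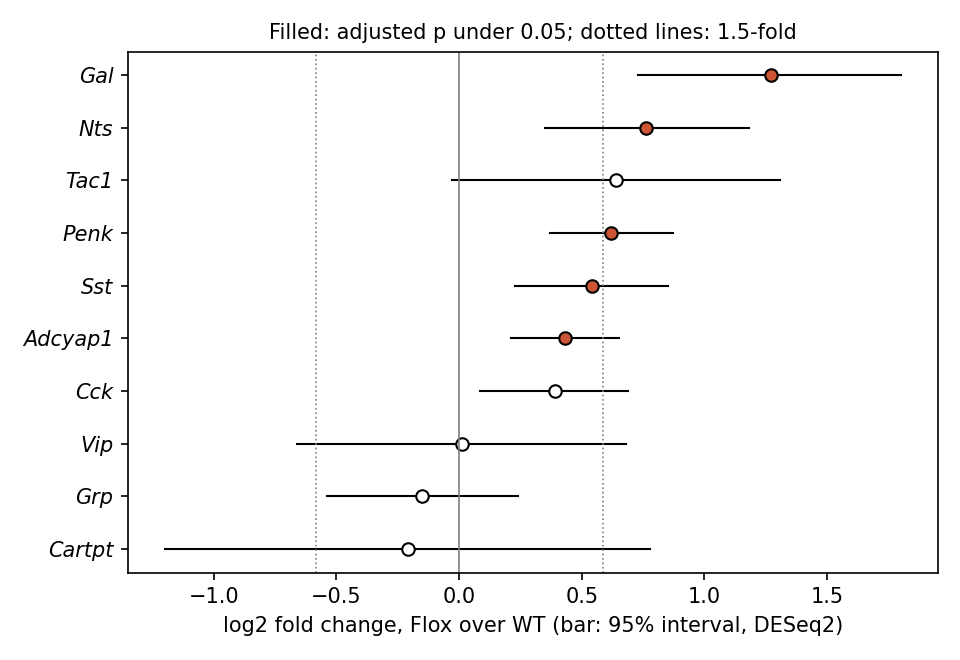
Log2 fold change, Flox over WT, of the 10 precursor genes with 95% intervals from DESeq2 (filled points passed an adjusted p under 0.05, dotted lines mark 1.5-fold). The 5 filled points lie to the right of 0, from 0.43 for Adcyap1 to 1.27 for Gal, and the widest interval is that of Cartpt, from -1.20 to 0.78.

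The number of precursor genes that passed depended on the libraries. The share of all genes that passed was not computed for fits without a library, so those counts have no background here. Leaving out each library in turn gave between 1 and 6 of 10, all of them higher in Flox. Flox replicate 4 stood farthest from the other libraries over all genes: the chi-square per degree of freedom between it and the WT libraries was 39.5 to 45.8, against 11.3 to 26.9 for Flox replicate 2 and 4.25 to 16.6 between WT libraries. Without Flox replicate 4 only Sst passed, although 9 of the 10 log2 fold changes kept the sign they had with all 5 libraries. The exception was Cartpt. With the edgeR quasi-likelihood test 7 of 10 passed (3.42% of its 29407 tested genes were higher). With the same test after a filter on low counts 1 passed (1.02% of 16711), which was Penk (edgeR adjusted p = 0.0444). There the calls of Gal (edgeR adjusted p = 0.0502), Adcyap1 (0.0569), Nts (0.0795) and Sst (0.0901) ended. With the trend on exon length removed 3 passed (3.49% of 16294).

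**Figure D4:**
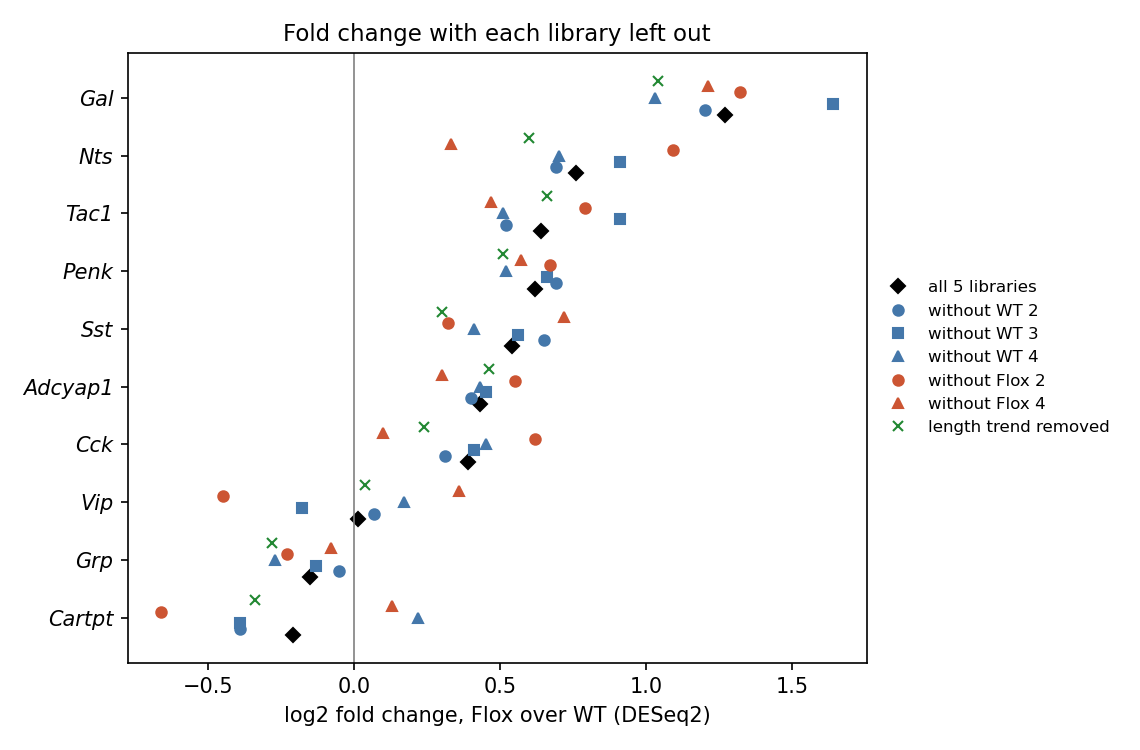
Log2 fold change, Flox over WT, of each precursor gene with all 5 libraries (black diamond), without each library in turn (blue for WT, orange for Flox) and with the trend on exon length removed (green cross). Gal stays between 1.03 and 1.64 when a library is left out, Nts runs from 0.33 to 1.09, and the points of Vip and Cartpt lie on both sides of 0.

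The genes nearest in pattern were sought for each precursor gene that passed, by the root-mean-square difference of centred log2(normalized count + 1) over the 5 libraries, among 12831 genes with a mean normalized count of at least 50. For Adcyap1 these were Eif1b (0.0162), Naa10 (0.0166) and Spcs1 (0.0191). For Penk they were Fhad1 (0.0318), Snhg8 (0.0363) and D930016D06Rik (0.0393), and for Nts they included Lair1 (0.0394) and 9330162G02Rik (0.0653). Sst was nearest to Zfp58 (0.0879), Il4ra (0.0943) and 9330162012Rik (0.101). Gal had more distant neighbours, which included Mcm6 (0.194) and Anxa3 (0.194).

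Markers of other cells moved with the groups in the same libraries. Across all genes tested, 4.20% were higher in Flox by the same rule. Of 10 microglial markers, 8 rose in Flox, and the summed normalized counts of the list were 1588 to 3114 in WT, 5381 in Flox replicate 2 and 12017 in Flox replicate 4, with no marker at 0 in any library. Endothelial markers summed to between 78.78 and 191.6 in WT and to 204.6 and 600.4 in Flox (3 of 5 rose), and the T cell markers to between 5.765 and 23.18 in WT and to 86.46 and 180.9 in Flox (both of the 2 tested rose). The part of these cells in the results for the precursor genes was not tested.

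Among neuronal markers, 0 of 11 dopaminergic genes passed in DESeq2 or in edgeR (3 at an unadjusted p under 0.05), with a median log2 fold change of -0.18. All 6 GABAergic markers had a negative log2 fold change, while 7713 of all 15724 genes tested had a positive one. Of the 6, Gad2, a GABA-synthesis gene, passed, with a fall of 0.35 on the log2 scale (DESeq2 adjusted p = 0.0302). Across all genes tested, 4.05% were lower by this rule. The call of Gad2 ended without each library other than Flox replicate 2 (DESeq2 adjusted p from 0.0814 to 0.663), with the replicate block (0.155), with the length trend removed (0.0850), without independent filtering (0.0564) and in edgeR with the filter (0.0854). Among 3 cholinergic markers Slc5a7, the choline transporter gene, fell (log2 -1.20, DESeq2 adjusted p = 0.0456), a call that ended without WT replicate 2 (0.520) or WT replicate 3 (0.0916), with the filter on low counts (0.0541), without independent filtering (0.0848), with the length trend removed (0.0709) and in edgeR with the filter (0.121). Without WT replicate 4, without Flox replicate 4 and with the replicate block it had no adjusted p. In the other lists the number that passed in DESeq2, also at an unadjusted p under 0.05, was 0: 9 dopaminergic subtype, 3 glutamatergic, 3 serotonergic, 6 astrocyte, 6 oligodendrocyte, 2 oligodendrocyte precursor and 4 blood markers, 4 markers of neighbouring hypothalamic cells and the 2 noradrenergic markers tested. Of these, edgeR without a filter called 3 blood and 2 hypothalamic markers higher. Th was at 9849 to 12813 normalized counts, but Gad2 at 3411 to 5002 and the astrocyte gene Gfap at 18865 to 32741 were abundant in every library as well. Per kilobase of exon the WT means were 4731 for Th and 790.5 for Gad2. The 5 libraries include none from mice without Cre, so these counts do not measure enrichment. By quantitative PCR against Cre-negative mice, the paper reports Th as enriched and Gad65 (Gad2) as not enriched.

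A wider list of 52 other neuropeptide precursors was read beside the 10 genes. Of these, 50 had a count, 33 were tested, 3 rose and 0 fell (0 also at an unadjusted p, 1 in edgeR without a filter), against the 4.20% and 4.05% of all genes given above, and 26 of the 33 had a positive log2 fold change with a median of 0.49. Npy, the precursor of neuropeptide Y, was at 298.2, 382.1 and 272.9 in WT and 680.1 and 488.1 in Flox (log2 0.88, DESeq2 adjusted p = 9.3e-04). Pth2, which encodes the peptide TIP39, was at 185.4, 118.2 and 97.04 in WT and 319.9 and 262.4 in Flox (log2 1.13, DESeq2 adjusted p = 0.00172). Scg2, a granin of dense-core vesicles that is itself cut into peptides, was at 17010, 17656 and 15247 in WT and 20794 and 25799 in Flox (log2 0.49, DESeq2 adjusted p = 0.00291). In these 3 genes neither Flox value fell within the WT range. Without Flox replicate 4 Npy still passed (DESeq2 adjusted p = 0.00380), while Pth2 (0.0520) and Scg2 (0.400) did not, and without Flox replicate 2 Scg2 alone passed.

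The most abundant others were Vgf, another granin-like precursor (log2 0.19, DESeq2 adjusted p = 0.267), Hcrt, the precursor of the orexins (1.73, 0.315), and Pnoc, the precursor of nociceptin (0.028, 0.951). Hcrt, which is made by neurons of the lateral hypothalamus, varied most among these, at 4153, 6214 and 994.4 in WT and 7232 and 17967 in Flox. Pmch, the melanin-concentrating hormone gene of the same region, was at 393.0, 901.9 and 245.0 in WT and 965.4 and 1639 in Flox. Neither passed (Pmch: DESeq2 adjusted p = 0.297), but their order of libraries, from Flox replicate 4 through Flox replicate 2 and WT replicates 3 and 2 to WT replicate 4, was also that of Gal, Tac1 and Scg2. The summed microglial and the summed endothelial markers followed this order as well, so it was not particular to precursor genes. The T cell sum differed from it in the order of WT replicates 2 and 3. The part of tissue from outside the midbrain in the values of the precursor genes was not tested.

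Ucn, the urocortin gene, which is known together with Cartpt from the Edinger-Westphal nucleus of the midbrain, was at 470.9, 420.9 and 1553 in WT and 648.4 and 263.4 in Flox. As for Cartpt, WT replicate 4 was the highest, Flox replicate 2 came next and Flox replicate 4 was the lowest. The hypothalamic genes Avp, Oxt and Pomc were all highest in Flox replicate 2 and lowest in WT replicate 4, with Oxt between 15.37 and 609.0. Pmch, Ucn, Avp, Oxt and Pomc, and Rln3 in the plot of levels relative to the WT mean, were named after their values were seen.

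**Figure D5:**
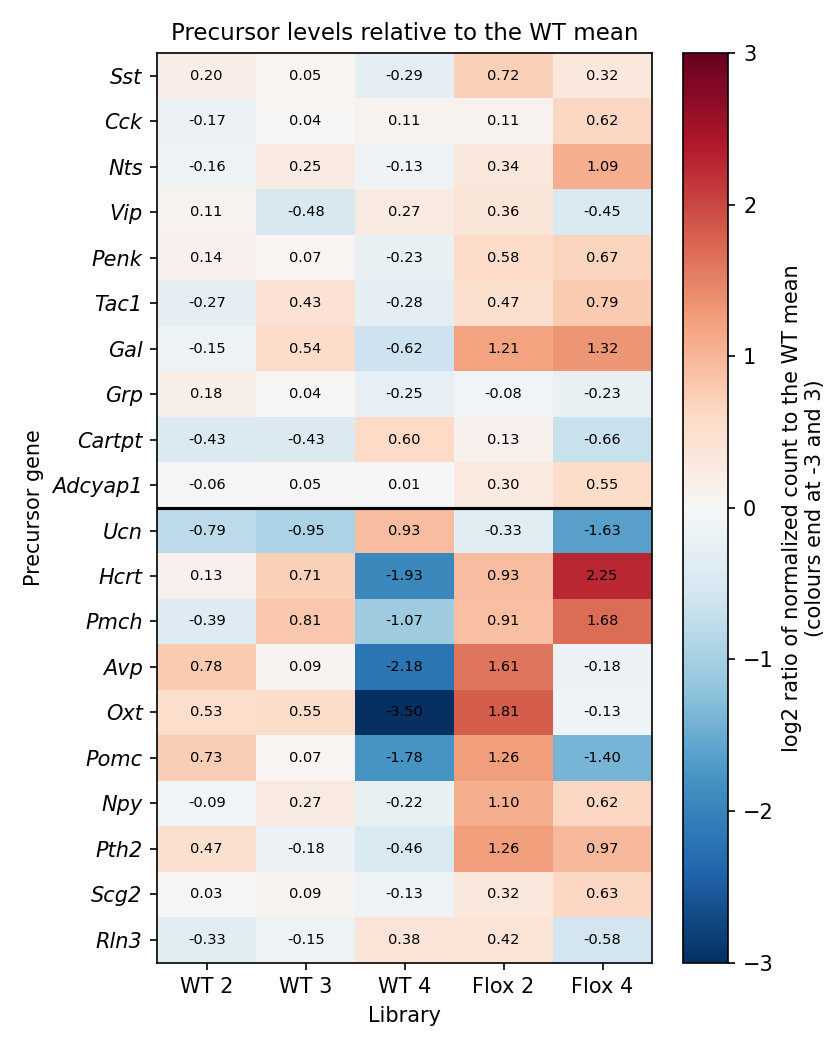
Log2 ratio of the normalized count in each library to the WT mean, for the 10 precursor genes (above the line) and 10 other precursors (below it); red is higher and blue lower than the WT mean. WT replicate 4 is at -1.93 for Hcrt and -3.50 for Oxt but at 0.60 for Cartpt and 0.93 for Ucn, and Flox replicate 4 is at 2.25 for Hcrt and 1.32 for Gal.

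Receptors for the peptides of the 10 genes formed a list of 24, of which 17 were tested. Only Sstr1, a somatostatin receptor, passed: it fell from 126.4, 170.2 and 153.7 in WT to 90.30 and 42.75 in Flox (log2 -1.17 ± 0.32, SE; DESeq2 adjusted p = 0.00823). The call was lost without WT replicate 3 (DESeq2 adjusted p = 0.112), and without WT replicate 4 or Flox replicate 4 it had no adjusted p (log2 -1.16 and -0.74). This count of 1 among 17 is near the background, in which 4.05% of all genes tested were lower. Of the 17, 4 had a positive and 13 a negative log2 fold change, with a median of -0.20, while 7713 of all 15724 genes tested had a positive one, with a median of -0.0063. The most abundant were Sort1, the sortilin gene, which also binds neurotensin (log2 -0.20, DESeq2 adjusted p = 0.209), Adcyap1r1, the PACAP receptor gene (-0.024, 0.940), and Ntsr2, a neurotensin receptor gene (-0.26, 0.326).

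Of 12 genes for prohormone processing, 11 were tested and 1 rose, against 4.20% of all genes tested, with a median log2 fold change of 0.12. This was Scg5, the gene for 7B2, the partner of prohormone convertase 2, at 5162, 5572 and 4397 in WT and 6288 and 7037 in Flox (log2 0.40, DESeq2 adjusted p = 0.0226). The call was lost without WT replicate 2 (0.136), WT replicate 4 (0.0573) or Flox replicate 4 (0.601) and with the length trend removed (DESeq2 adjusted p = 0.200). Pcsk1n, which encodes the convertase inhibitor proSAAS (0.12, DESeq2 adjusted p = 0.680), Cpe, the carboxypeptidase E gene (0.36, 0.135), and Pam, the amidating enzyme gene (0.17, 0.407), were the most abundant of the other members, and none of these log2 fold changes passed.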

How the data were processed

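RNA-seq of midbrain BAC-TRAP pull-downs from 3 Esrrg WT and 2 Esrrg Flox libraries was analysed. The deposited table holds raw read counts per gene, made by the authors from poly(A)-selected libraries without strand information by trimming (Trim Galore 0.6.6), alignment (STAR 2.7.9a) and counting (HTSeq 0.11.3), with versions from the submitters' processing notes. Those notes name the build GRCm39, while the methods name GRCm38 with other versions of the aligner and the counter, so no coordinates of counted genes are given. Reads that overlap genes on opposite strands cannot be told apart. Reads outside genes made up 3.18 to 4.45%, ambiguous reads 5.62 to 5.78% and multiply aligned reads 3.60 to 4.23%, and these stayed out of all tests.

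Names were matched by gene ID without version to GENCODE M21 for 52093 of 53700 IDs (97.0%), and exon lengths came from that release. The libraries held 20635855 to 23105058 assigned counts. A gene at 0 could be present at up to 0.130 to 0.145 CPM (3 counts), which covers counting error only.

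Genes with at least 1 count (29407) were fitted with DESeq2 1.42.0 (R 4.3.3, Wald test, two-sided), without fold shrinkage. Independent filtering was on, so the Benjamini-Hochberg adjustment covered the 15724 genes with an adjusted p. The tool and the thresholds (adjusted p under 0.05, and 1.5-fold) were the study's. Genes that DESeq2 gave no adjusted p were left as not tested. edgeR 4.0.16 (quasi-likelihood), other size factors, filters (at least 10 counts in 2 libraries), a replicate block, a correction for exon length and the omission of each library were alternatives. The edgeR fit with the filter was added after seeing the data. The procedures were tested on simulated counts. An exact permutation test of 3 against 2 libraries cannot go below p = 0.1, and none was used.

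The 10 genes, the lists and the markers were chosen with earlier results of these data known. Genes named were the 10, Esrrg, members of the other lists that passed, the 3 most abundant others of each list, the 3 nearest patterns of each precursor gene that passed, and markers where a result turned on them. Some genes that this rule names are not reported here. Promoter sequences are from RefSeq (GRCm38.p6).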

Additional observations from a re-analysis of the deposited data

How the results depend on the processing

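The 10 log2 fold changes were recomputed under 12 alternatives each. Of these 120 values, 95 kept their direction and side of the threshold, 14 kept the direction but no longer passed, 6 came to pass and 5 turned in sign. Those that turned were not past the threshold: Vip at -0.23 with the replicate block, -0.18 without WT replicate 3 and -0.45 without Flox replicate 2, and Cartpt at 0.22 without WT replicate 4 and 0.13 without Flox replicate 4. Over the 5 omissions Vip ran from -0.45 to 0.36 and Cartpt from -0.66 to 0.22. The count of precursor genes that passed was 5, and 1 to 6 when a library was left out, 3 with the length trend removed, 1 with edgeR and the filter on low counts, and 0 in the test against a change of at most 1.5-fold (DESeq2; 1 gene at an unadjusted p under 0.05, while edgeR against no change called 7). With the fold of 1.5 the count of 3 became 1 with edgeR and the filter and 1 with the length trend removed, and ran from 1 to 4 over the omissions. For the other precursors the count of 3 became 12 with edgeR (19 at an unadjusted p under 0.05), 1 with edgeR and the filter, 6 with the replicate block, and 1 to 8 over the omissions. For the receptors the count of 1 became 2 with edgeR, 0 with edgeR and the filter (5 at an unadjusted p under 0.05) and 0 with the replicate block (2 unadjusted), and 0 to 1 over the omissions, in 2 of which Sstr1 had no adjusted p. For the processing genes the count of 1 became 2 with edgeR, 0 with edgeR and the filter (3 unadjusted), 0 with the length trend removed (3 unadjusted), and 0 to 2 over the omissions. With the longest transcript, 8 of 10 genes kept their rank by WT level. The cause of these changes was not tested. The share of all genes that passed was not computed for the omissions, the replicate block or the test against at most 1.5-fold. TMM library sizes, the filter on low counts in DESeq2 and no independent filtering changed none of these counts.

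Replicate numbers 2 and 4 occur in both groups, but no label says that a number marks a shared day or litter. The deviations of same-numbered libraries correlated at 0.093 and 0.087 over 16711 genes, which with 2 libraries in Flox does not show a pairing. With the replicate block 6 precursor genes passed and 4 also by 1.5-fold; Tac1 was the addition (log2 0.90, DESeq2 adjusted p = 2.5e-05), and 1 processing gene passed. The lowest count of a precursor gene in a library was 65 (Vip), while 17 of the other precursors and 7 receptors had too few counts for an adjusted p. Only 2 Flox libraries give the spread of that group.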
